A study of Mus musculus with 17 samples.

Results

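Hox genes encode homeodomain transcription factors that give cells their position along the head-to-tail axis. They lie in 4 clusters (Hoxa to Hoxd), in which paralogs with low numbers pattern the hindbrain and neck and those with high numbers the trunk end, limbs and genitalia. In cells outside these domains and in early development the clusters are usually held silent by Polycomb proteins, which place repressive histone marks, and they are opened by trithorax proteins. The present data address the level of these genes in single 2-cell mouse embryos, and whether the level differed with treatment of the father. The members were the rows (probe sets) whose platform annotation gave exactly 1 symbol made of Hoxa, Hoxb, Hoxc or Hoxd and a number: 37 rows for 37 genes, of 21780 rows with 1 symbol (19935 genes). The Hoxb8 row carried a second symbol (Hoxb7) and was not counted.

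RNA of 17 single 2-cell embryos was measured, 1 array per embryo. Of these embryos 7 controls came from 3 sires injected with saline (A with 1 embryo, B and D with 3 each), and 10 came from 3 sires injected every day for 6 weeks with PJ34, which inhibits PARP1 and PARP2 (MTM11 and MTM13 with 4 embryos each, MTM14 with 2). All animals were wild-type mice of strain 129SVE, and the untreated mothers were mated naturally. Sire is nested in treatment, embryos of 1 sire share a father, and the p-values below measure the spread between embryos. Some labels call the control sires untreated where others say saline. The paper's methods give 6 weeks of PJ34, while its legend on the sperm arrays gives daily dosing for 10 weeks. The age of the animals is not given in the labels used here. The values are RMA signals, a normalized log2 intensity of a probe set, on which a difference of 1 is a doubling. Of the 2-cell and oocyte transcripts listed for the check of stage, 14 of 14 rows lay above the background level used below, among them Bmp15 (an oocyte growth factor) at a mean of 11.87. Of the markers of cumulus cells, the somatic cells around the egg, 0 of 11 rows did, and the mean over the list was 5.29 to 5.47 in control and 5.20 to 5.50 in PJ34 embryos. Of 7 sperm rows Prm2 alone did so (list mean 5.57 to 5.95 in control, 5.66 to 5.89 in PJ34 embryos), of 5 blood rows Slc4a1 alone (5.23 to 5.43 and 5.26 to 5.69), and of 6 oviduct rows Krt8 and Epcam (6.24 to 6.30 and 6.13 to 6.62). The sperm rows Prm1 and Tnp2 fell just short, above that level in 8 of the 17 embryos each. The part of these cumulus, sperm, blood and oviduct rows in the Hox levels was not tested. The 2-cell and oocyte rows stood for 11 of the 16 listed genes. At limma's unadjusted p below 0.05, 3 of these 14 rows were lower and 2 higher in PJ34 embryos (all rows 3.93% and 1.96%). None passed an adjusted p below 0.1. Bmp15 differed by 0.29 and Usp17lb by -1.11 (PJ34 minus control). Whether the groups differed in stage was not tested.

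The 3 promoter windows printed here show how CG content differed among members. They are the windows of Hoxa7, which lay above background in all embryos, of Hoxd9, the member with the largest spread, and of Hoxa13, the window with the most CG dinucleotides, whose row stayed below background. Each holds 250 bases before and 50 bases after a listed transcript start (RefSeq, GRCm38.p6), printed 5′ to 3′ on the gene's strand with CG dinucleotides in capitals. Hoxa7 lies on chromosome 6 at 52218524 to 52218823 (minus strand), Hoxd9 on chromosome 2 at 74697513 to 74697812 (plus strand) and Hoxa13 on chromosome 6 at 52260831 to 52261130 (minus strand).
Hoxa7: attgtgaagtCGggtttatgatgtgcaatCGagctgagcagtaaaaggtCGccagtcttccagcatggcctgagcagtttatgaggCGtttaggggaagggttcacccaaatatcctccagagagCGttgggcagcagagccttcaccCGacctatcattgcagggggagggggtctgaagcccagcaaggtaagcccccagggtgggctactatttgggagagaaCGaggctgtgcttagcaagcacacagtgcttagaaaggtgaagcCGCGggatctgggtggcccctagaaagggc
Hoxd9: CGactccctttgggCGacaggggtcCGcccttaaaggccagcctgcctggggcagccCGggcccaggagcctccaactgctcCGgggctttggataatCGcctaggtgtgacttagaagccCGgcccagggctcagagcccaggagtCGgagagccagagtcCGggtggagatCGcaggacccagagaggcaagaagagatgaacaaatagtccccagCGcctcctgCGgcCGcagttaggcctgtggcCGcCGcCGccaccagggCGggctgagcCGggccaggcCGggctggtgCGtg
Hoxa13: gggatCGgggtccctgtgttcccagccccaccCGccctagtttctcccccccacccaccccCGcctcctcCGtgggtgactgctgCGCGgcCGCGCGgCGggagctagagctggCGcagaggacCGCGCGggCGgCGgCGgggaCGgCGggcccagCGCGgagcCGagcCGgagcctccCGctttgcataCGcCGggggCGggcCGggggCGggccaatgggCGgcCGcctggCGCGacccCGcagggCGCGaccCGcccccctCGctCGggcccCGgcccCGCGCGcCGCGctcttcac

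CG dinucleotides were counted in 23 such windows, which 21 of the 37 genes had. In the Hoxb cluster only Hoxb1 and Hoxb4 had a window, and in the Hoxc cluster only Hoxc4. Hoxa4, Hoxb3, Hoxb7 and Hoxb9, whose rows lay above the background level, had none. The values below therefore describe mainly the Hoxa and Hoxd clusters. The Hoxa7 window held 9 CG dinucleotides at 55.7% G and C, the Hoxd9 window 20 at 68.3% and the Hoxa13 window 45 at 81%. Over the 23 Hox windows the median was 15 CG and 58% G and C, against 7 CG and 52.7% over 32851 windows of all genes. In 16 of the Hox windows (69.6%), 10 or more CG were found, and in 43.5% of all windows. Olfactory receptor genes, which set the background level below, had a median of 1 CG and 35% G and C. A TATA box (TATAAA, either strand) was present in 13% of Hox windows and 13.6% of all windows, and CCAAT in 60.9% and 37.4%. The Hox-Pbx motif TGATTNAT was present in 2 Hox windows (8.7%), those of Hoxa2 and Hoxd11, against 3.22% of all windows. Matches are matches of letters, not measured binding. Across the 21 genes the row's mean signal and the window's G and C content correlated with Pearson's r of 0.08, and the mean signal and the CG count with r of -0.14 (descriptions, as rows differ in their probes). The 4 of these genes above the background level had a median of 12.25 CG, and the others 16.5.

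The Hox clusters also hold miRNA genes, and mature sequences of these are printed because the precursor rows were measured beside the members. The 3p arms of the miR-10 and miR-196 genes are not printed. Bases 2 to 8, the seed that pairs with targets, are in capitals (RefSeq, GRCm38.p6). miR-10a-5p lies at chr11:96317186-96317208 and miR-10b-5p at chr2:74726074-74726096, both on the plus strand, and they share a seed. Another seed is shared by miR-196a-5p, made from chr11:96265187-96265208 and chr15:102973365-102973386 (plus strand), and miR-196b-5p, at chr6:52230129-52230150 (minus strand). miR-615, at chr15:103014926-103014947 (5p) and chr15:103014969-103014990 (3p) on the plus strand, has seeds of its own.
miR-10a-5p: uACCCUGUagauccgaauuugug
miR-10b-5p: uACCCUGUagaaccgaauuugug
miR-196a-5p: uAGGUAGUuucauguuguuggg
miR-196b-5p: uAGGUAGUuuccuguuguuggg
miR-615-3p: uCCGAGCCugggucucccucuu
miR-615-5p: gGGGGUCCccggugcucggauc

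The array does not separate the 2 arms of a precursor. Mir10a had a mean of 3.40 and Mir10b of 3.44 over 17 embryos, at percentiles 0.832 and 0.988 of all rows, so both sat at the bottom of the arrays. The Mir196a-1, Mir196a-2 and Mir196b rows had means of 6.01, 5.03 and 6.03. Mir615, which lies in the Hoxc cluster, had 7.52 to 8.24 and was above the background level in all 17 embryos. The antisense RNAs Hottip, Hoxaas2 and Hoxd3os1 (2 rows) had means of 5.14, 5.86, 5.55 and 5.37, and none was above it in any embryo. Hottip, which at other stages promotes transcription of 5′ Hoxa genes, was the companion row with the smallest p between groups: it had 5.24 ± 0.18 (SD, n = 7) in control and 5.07 ± 0.09 (SD, n = 10) in PJ34 embryos, a difference of -0.17 (unadjusted p = 0.0216, limma's adjusted p = 0.843).

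Most Hox rows lay in the lower range of the arrays. The background level (called the floor here) was the 95th percentile of 1035 olfactory receptor rows in the same array, 6.16 to 6.37 over the embryos. These receptors are not normally expected in an embryo at this stage. The paper, however, describes early expression of individual olfactory receptor genes in embryos of its models, to some extent with PJ34. Between the groups here, 0 olfactory rows passed limma's adjusted p below 0.1. At unadjusted p below 0.05, 40 of the 1035 were lower and 10 higher in PJ34 embryos (all rows 3.93% and 1.96%). The paper compared individual embryos with controls, which this comparison of groups does not address. A row was called above the floor when it exceeded it in at least 9 of the 17 embryos. Of the 37 Hox rows, 8 were above it (21.6%), against 48.3% of all rows with 1 symbol, 4.83% of olfactory and 1.15% of vomeronasal receptor rows. The floor lay close to the array's median over all rows with 1 symbol (6.177 to 6.295 over the embryos). By the same rule, the same 8 Hox rows and 49.6% of all rows exceeded that median. A call above the floor therefore places a row above about the middle of the array and does not show that its transcript was present. The median Hox row had a mean of 5.68 and lay at the 34.1 percentile of the array. The brightness of a probe set depends on its probes, so rows are placed against the array and not against each other, and the part of base composition in these shares was not tested. Genes of homeobox and Pax families outside the clusters (70 rows, such as Dlx, Lhx and Pax genes, a list chosen after the data were seen) had 61.4% above the floor. They are called homeobox rows outside the clusters below, though some Pax genes lack a full homeobox.

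**Figure D1:**
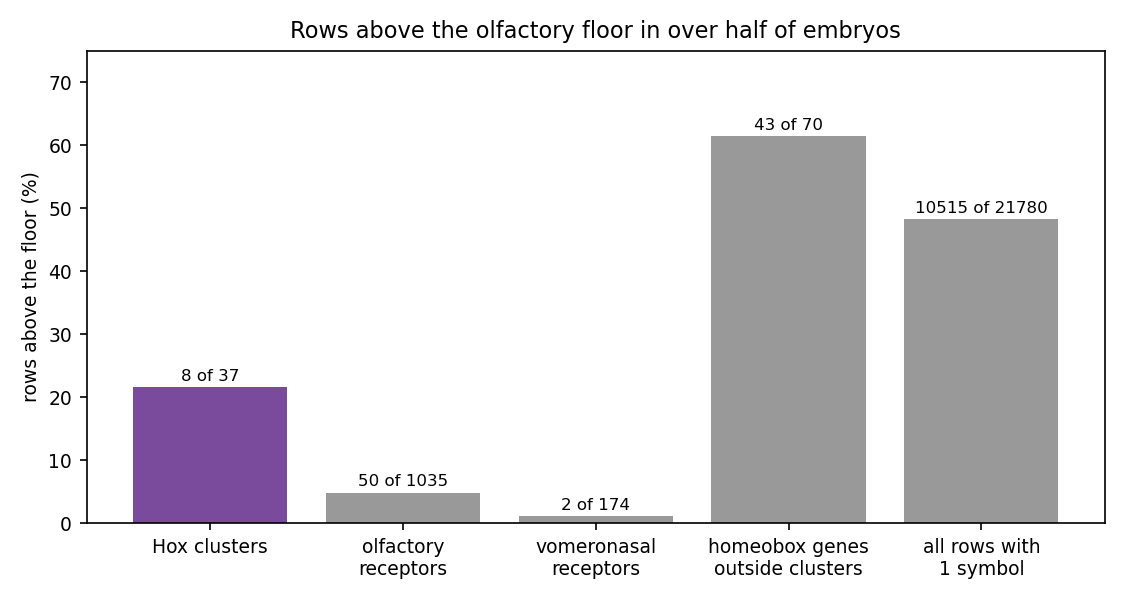
Share of rows above the floor in at least 9 of the 17 embryos, in percent, for the Hox clusters and 4 comparison sets; counts stand over the bars. The Hox bar (8 of 37) lies above the receptor bars and below that of all rows (48.3%) and of the homeobox and Pax genes outside the clusters (61.4%).

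The 8 rows were Hoxa4, Hoxa7, Hoxb1, Hoxb3, Hoxb7 and Hoxb9, which exceeded the floor in all 17 embryos (6 of 37; 36.1% of all rows did), and Hoxd9 and Hoxd11, in 11 and 10. Just outside, Hoxb2 and Hoxd10 exceeded it in 3 embryos each and Hoxa6 and Hoxc9 in 1 each, so 12 of 37 did in at least 1 embryo (62.8% of all rows), and the other 25 never did. Hoxb3, which acts in hindbrain and pharyngeal arch patterning, had the highest mean in the set: control embryos ranged from 7.59 to 8.22 with a median of 7.73, and PJ34 embryos from 7.64 to 8.02 with a median of 7.78. Hoxb1, which specifies a hindbrain segment, had 6.91, 7.12 and 7.18 (lowest, median, highest) in control and 7.01, 7.07 and 7.11 in PJ34 embryos. Every embryo of both groups was above its floor for Hoxb1 and Hoxb3, and the groups overlapped.

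Hoxa7, which acts in trunk patterning, ranged from 7.10 to 7.99 in control (median 7.43) and from 7.13 to 8.02 in PJ34 embryos (median 7.52). Hoxa4, which acts in neck vertebrae, ranged from 6.59 to 6.95 and from 6.50 to 7.03. Hoxb7 and Hoxb9, genes of the thorax, had means of 6.62 and 6.52. Among these, only Hoxa7 and Hoxb3 exceeded the 99th percentile of olfactory rows in all 17 embryos, Hoxb1 did so in 12, and Hoxa4 and Hoxd9 in 1 each. Hoxd9, which acts in the limb and lower spine, had 5.71, 6.41 and 6.96 (lowest, median, highest) in control and 6.04, 6.45 and 7.13 in PJ34 embryos, and in both groups embryos lay on either side of the floor. Hoxd11, which acts with Hoxa11 in forearm and kidney, lay near the floor in all embryos (6.13 to 6.63).

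**Figure D2:**
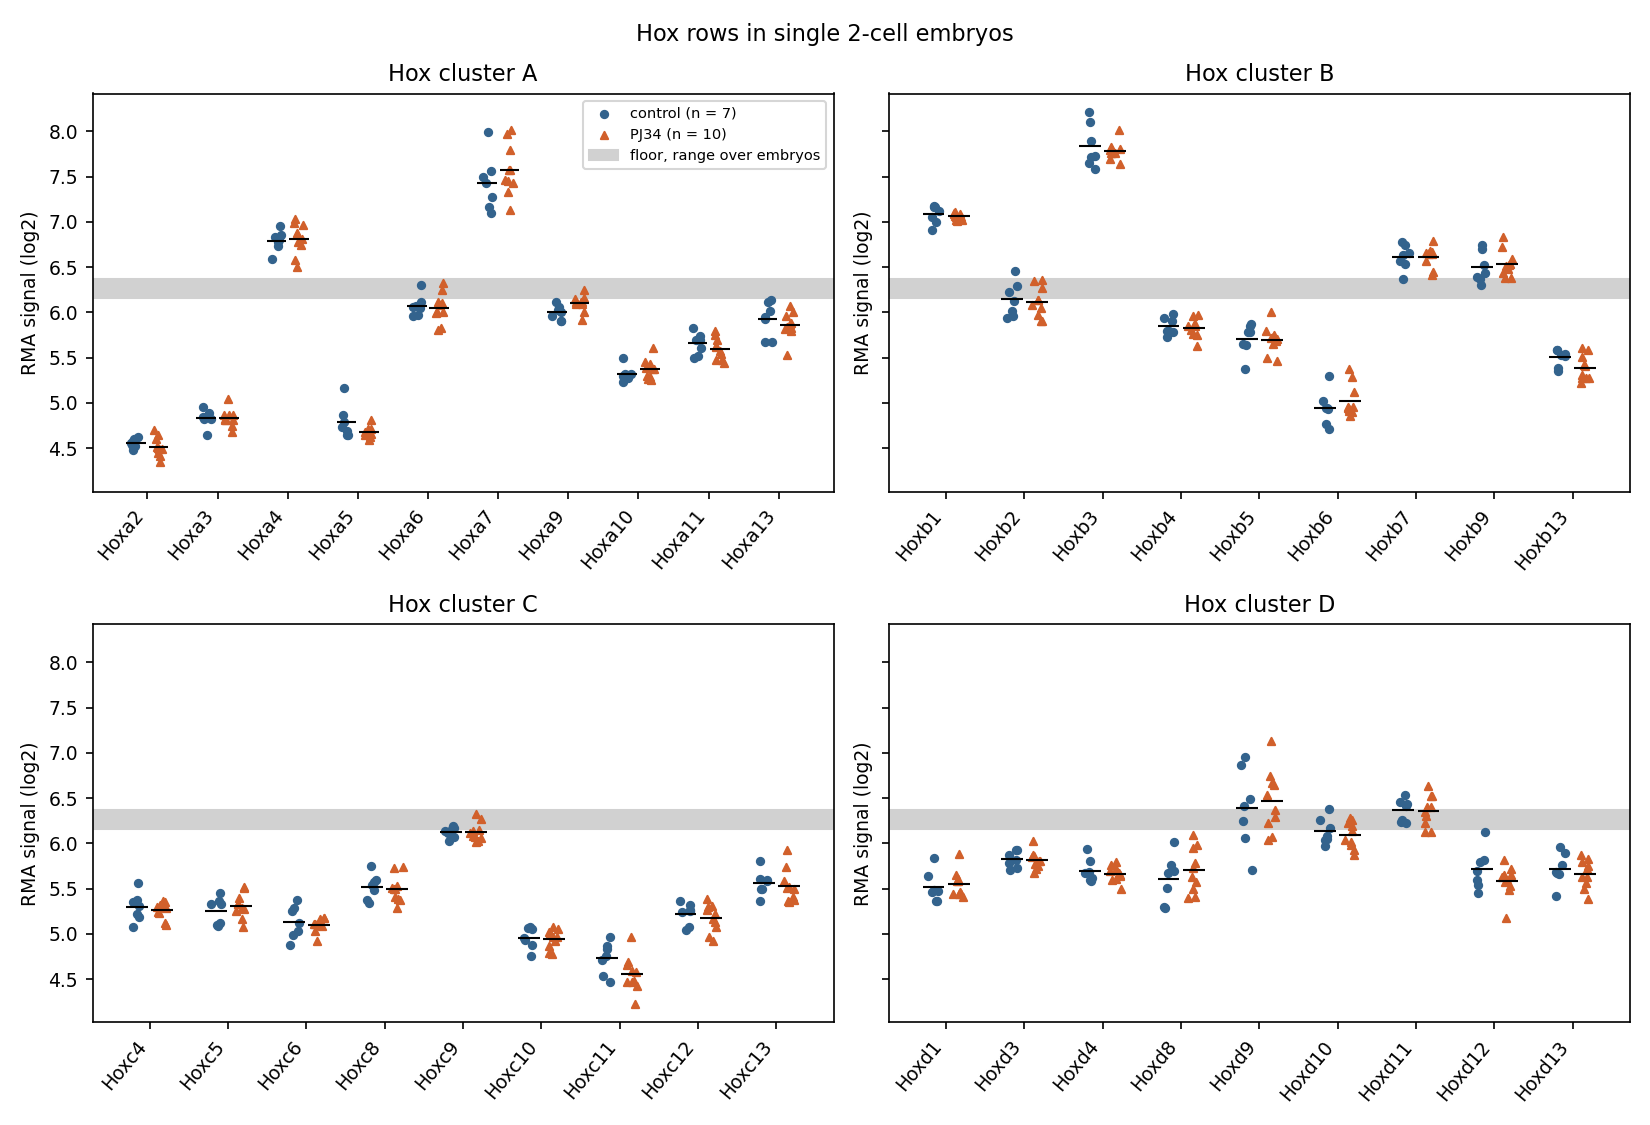
RMA signal (log2) of each Hox row in every embryo, by cluster; circles are control (n = 7), triangles PJ34 (n = 10), short lines the group means, and the grey band the range of the floor over embryos. Hoxb3 and Hoxa7 sit above the band in all embryos, 25 rows never exceeded the floor of the same embryo, and the groups overlap in all 37 rows.

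By cluster, 2 of 10 Hoxa, 4 of 9 Hoxb, 0 of 9 Hoxc and 2 of 9 Hoxd rows were above the floor. The lowest and highest rows by mean were Hoxa2 (4.53) and Hoxa7 (7.52) in Hoxa, Hoxb6 (4.99) and Hoxb3 (7.81) in Hoxb, Hoxc11 (4.63) and Hoxc9 (6.12) in Hoxc, and Hoxd1 (5.54) and Hoxd9 (6.44) in Hoxd. Hoxa2 acts in the second pharyngeal arch and Hoxc9 in thoracic motor neurons. By position, 3 of 11 rows of paralogs 1 to 4, 2 of 10 of paralogs 5 to 8 and 3 of 16 of paralogs 9 to 13 were above it, with median means of 5.82, 5.58 and 5.66. These counts rest on few rows and were not tested. Paralog group 7 had both its rows above the floor; in groups 2, 5, 6, 8, 10, 12 and 13 no row was.

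Spread over embryos was small. The median SD of a Hox row over 17 embryos was 0.142, against 0.138 for olfactory rows and 0.189 for all rows, and 5 Hox rows exceeded the median of all rows: Hoxd9 (0.372), Hoxa7 (0.288), Hoxd8 (0.247), Hoxc11 (0.205) and Hoxd12 (0.20). Pairs of Hox rows correlated over embryos with a median r of 0.235 within a cluster and of 0.238 between clusters (n = 17 embryos that share each array's signal), while olfactory pairs had 0.119 and pairs of homeobox rows outside the clusters 0.273. The pair most alike was Hoxb6 and Hoxd1 (r = 0.75), from different clusters.

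Offspring of PJ34-treated sires were then compared with controls by limma over all 21780 rows. No Hox row passed an adjusted p below 0.1 (0 of 37; background 0%), and the lowest adjusted p was 0.843. At unadjusted p below 0.05, 1 Hox row was higher and 0 lower, 2.7% of 37 against 5.89% of all rows (3.93% lower and 1.96% higher). PJ34 means were below control means in 25 of 37 rows (67.6%; all rows 56.4%), with a median difference of -0.02 against -0.016 over all rows. Differences ran from -0.18 to 0.14, and 0 rows exceeded 0.2 in either direction (all rows 19.2%). No Hox row had groups that did not overlap (all rows 0.0138%). The 95% intervals of all 37 differences lay between -0.37 and 0.46, at most 1.38-fold in signal, with a median standard error of 0.073. As 25 of the rows never exceeded the floor, this fold of signal does not bound a fold of transcript.

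Hoxa9, known for its role in blood stem cells, was the row with an unadjusted p below 0.05. Its control embryos had 5.91, 6.01 and 6.12 (lowest, median, highest) and its PJ34 embryos 5.92, 6.11 and 6.25. The groups overlapped, 9 of 10 PJ34 embryos lay above the control mean, and no embryo was above its floor. The difference was 0.10 ± 0.05 (SE; unadjusted p = 0.0485, limma's adjusted p = 0.843). The next rows with a higher PJ34 mean were Hoxa10 (uterus; 0.06), Hoxa7 (0.14), Hoxb6 (0.08), Hoxd8 (0.10) and Hoxc5 (0.06), none with an unadjusted p below 0.309. Leaving out 1 embryo moved each of these by over 1.5 times: Hoxa10 ran from 0.03 (without MTM11-2) to 0.09 (without B-2), Hoxa7 from 0.09 (without A-2) to 0.23 (without D-1) and Hoxb6 from 0.04 (without MTM13-4) to 0.14 (without D-3). Hoxd8 ran from 0.05 (without D-1) to 0.17 (without D-2) and Hoxc5 from 0.03 (without D-3) to 0.09 (without B-3).

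Among rows with a lower PJ34 mean, Hoxc11, which acts in the hind end of the body, had the smallest p. Its control embryos had 4.47, 4.75 and 4.97 (lowest, median, highest) and its PJ34 embryos 4.22, 4.53 and 4.97, which overlapped, and 1 of 10 PJ34 embryos was above the control mean. The difference was -0.18 ± 0.09 (SE; unadjusted p = 0.0754, limma's adjusted p = 0.863). Hoxb13, which acts in the tail and prostate, differed by -0.11 (p = 0.0922), Hoxa5, which acts in the lung, by -0.11 (p = 0.096; the difference was -0.05 without control B-1) and Hoxd12, a digit gene, by -0.13 (p = 0.178; all limma, unadjusted; -0.07 without control D-3). Hoxa11, a gene of forearm and uterus, and Hoxa13, a digit and genital gene, differed by -0.06 (-0.03 without control D-3) and -0.07 (-0.03 without MTM13-1). All these rows lay below the floor in every embryo. In dim rows a smaller amount of transcript and less amplified RNA cannot be told apart.

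**Figure D3:**
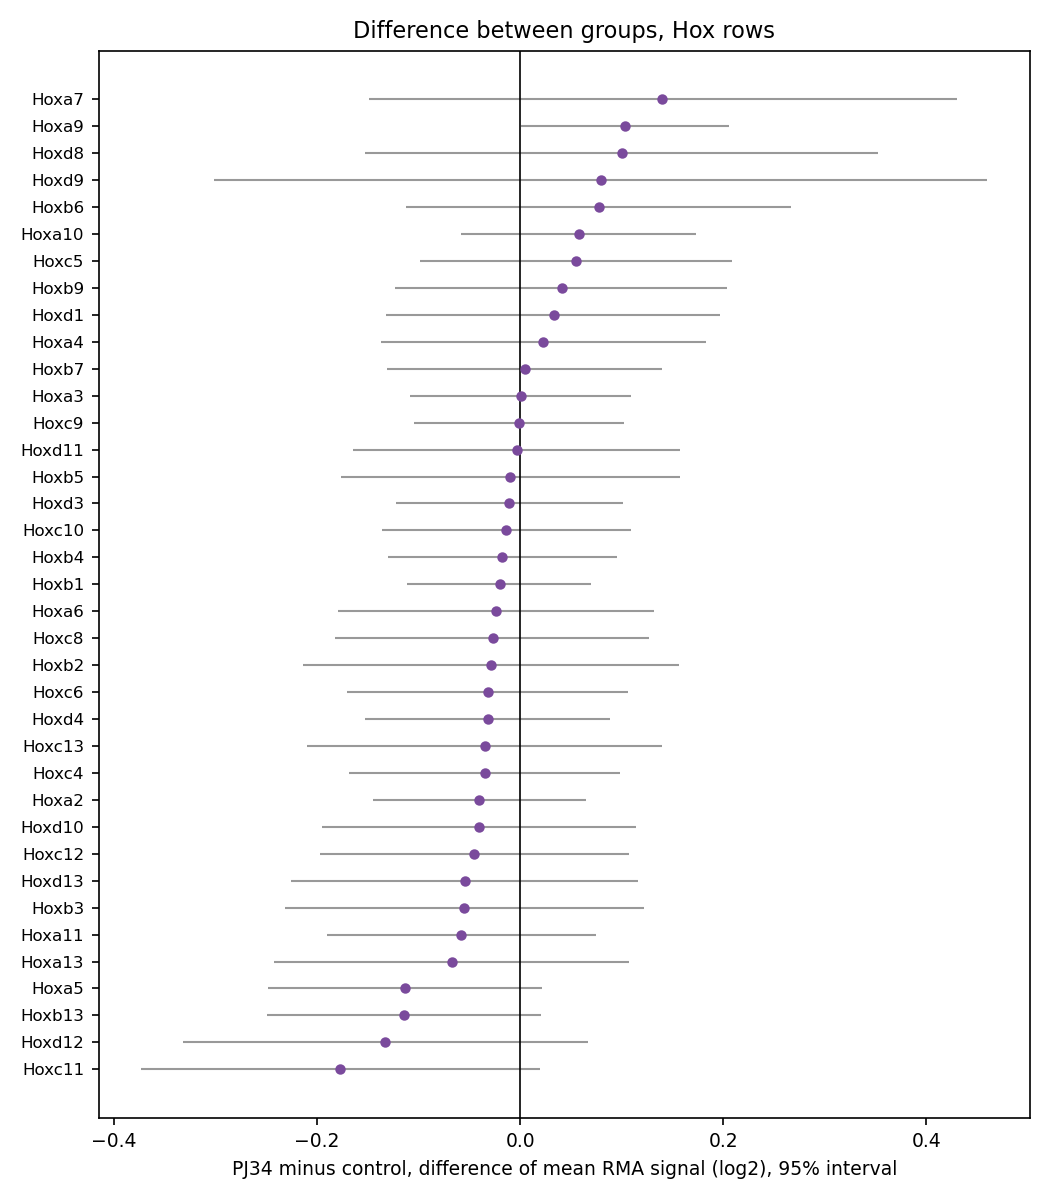
Difference of mean RMA signal (log2), PJ34 (n = 10) minus control (n = 7), for each Hox row with its 95% interval, ordered by size. The interval of Hoxa9 lies just above 0, those of the other 36 rows include 0, and all lie within -0.37 and 0.46.

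Each PJ34 family was set against the 7 controls, which the families share. No Hox row passed an adjusted p below 0.1 in MTM11 (background 0.00459%), MTM13 (0%) or MTM14 (0.0551%). At unadjusted p below 0.05, 0 Hox rows were lower and 0 higher in MTM11 (background 2.53% and 2.72%), 1 was lower and 0 higher in MTM13 (2.9% and 2.06%), and 0 were lower and 1 higher in MTM14 (3% and 2.53%). Hoxb13 had 5.28, 5.31, 5.27 and 5.42 in the 4 MTM13 embryos, 3 of them below every control (5.35 to 5.59), a difference of -0.18 (unadjusted p = 0.0408, limma's adjusted p = 0.954). Hoxd8, which acts in the trunk, had 6.09 and 5.95 in the MTM14 embryos, 1 of them above every control (5.29 to 6.01), a difference of 0.42 (unadjusted p = 0.0259, limma's adjusted p = 0.841). The difference between families was tested by a moderated F: 0 Hox rows passed after adjustment (background 0.0138%) and 1 had an unadjusted p below 0.05 (2.7%; background 4.91%), Hoxd8 with p = 0.0486.

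Each embryo was also set against controls on its own. No Hox row was called at an adjusted p below 0.1 in any of the 10 PJ34 embryos (4.79% of all rows were called in at least 1), nor in any control set against the other 6 (2.78%). The lowest adjusted p was 0.523, for Hoxb5, a gene of the neck and thorax, in control B-2 at 5.38. In control B-1, Hoxa5 had 5.16 (unadjusted p = 0.00941, limma's adjusted p = 0.538). At unadjusted p below 0.05, at most 3 Hox rows passed in any embryo (control D-3, where 6.37% of all rows did; 4.48% to 7.94% over the 17 embryos). In each embryo, from 6 to 10 Hox rows exceeded the floor.

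The mean over the 37 Hox rows was 5.79 ± 0.08 (SD, n = 7) in control and 5.78 ± 0.07 (SD, n = 10) in PJ34 embryos. It was lowest in control A-2 (5.68) and highest in control D-3 (5.90), so the controls spanned the PJ34 embryos (5.70 to 5.89). The deviation of an embryo's Hox rows had the same sign as that of its olfactory rows in 15 of 17 embryos. The exceptions were MTM11-3 and MTM14-1, and in MTM14-1 the Hox rows lay 0.12 lower than the olfactory deviation, with 6 Hox rows at their lowest value of all embryos. Similar counts occurred elsewhere: controls A-2 and D-1 had 5 rows each at their lowest, and D-3, MTM11-4 and MTM13-4 had 6 each at their highest.

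**Figure D4:**
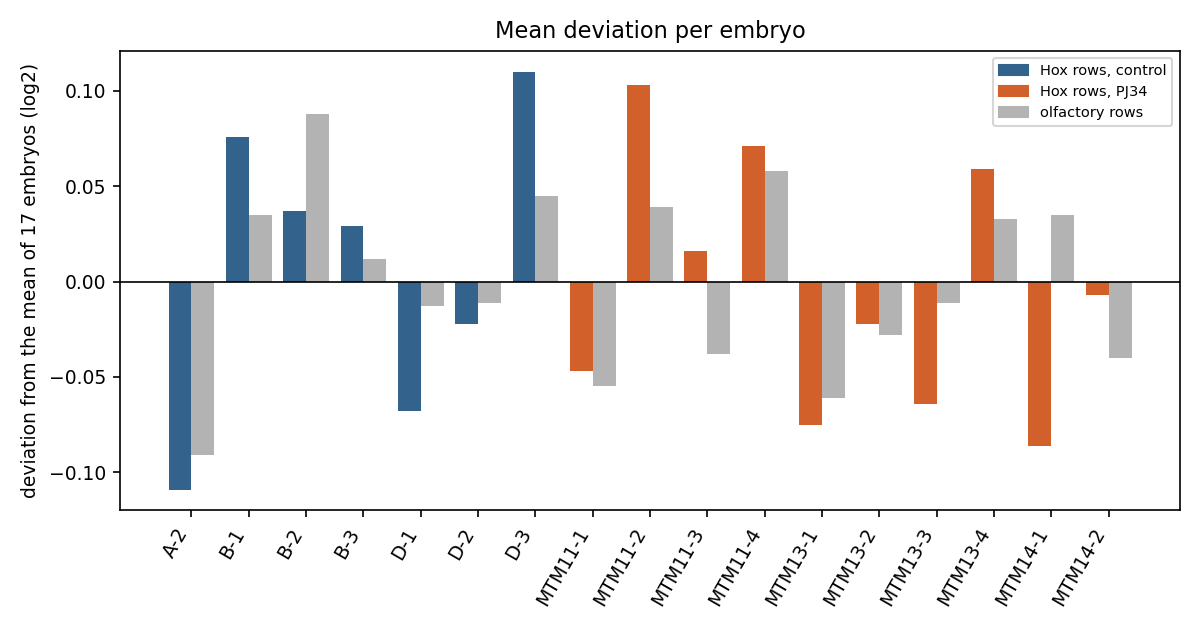
Mean deviation of the 37 Hox rows (coloured) and of the olfactory receptor rows (grey) from the mean over 17 embryos (log2), for each embryo. Both bars point the same way in 15 embryos, and in MTM14-1 the Hox bar is below 0 and the olfactory bar above it.

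Genes that act with or on the Hox clusters were counted as lists chosen with these data known. No row of the 6 lists passed an adjusted p below 0.1, 1 of their 67 rows (Kmt2b; 1.49%, against 5.89% of all rows) had an unadjusted p below 0.05, and the median differences lay between -0.05 and -0.01, beside -0.016 over all rows. Of the Polycomb rows 13 of 17 were above the floor, among them Suz12 (12.23) and Ezh2 (11.16), members of the complex that places the repressive mark, and Bmi1 (11.80), of the complex that binds it. Of the trithorax and related rows 8 of 9 were above the floor. The row that was not was Kmt2a, with a mean of 6.05 and above the floor in 1 embryo. Kmt2b, a histone methyltransferase, had 7.26 ± 0.34 (SD, n = 7) in control and 7.60 ± 0.29 (SD, n = 10) in PJ34 embryos (unadjusted p = 0.0325, limma's adjusted p = 0.843).

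Of the TALE cofactors, which bind DNA with Hox proteins, 4 of 8 rows were above it: Meis2, Meis3, Pbx2 and Pbx4. Of the Cdx and ParaHox genes, which include activators of Hox clusters, 2 of 6 were (Cdx1 and Gsx1), and Cdx2 had 5.84. Of the retinoic acid genes, whose ligand opens Hox clusters in order, 8 of 14 were, Rarg with 7.52 and Aldh1a2, an enzyme that makes the ligand, below with 5.78. Of the rows that flank the clusters 8 of 13 were above it, such as Skap2 (10.49) beside Hoxa and Cbx5 (8.99) near Hoxc. Evx1 and Evx2, homeobox genes beside Hoxa and Hoxd, had 5.95 and 6.61.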

How the data were processed

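RNA of single embryos was amplified with the WT-Ovation One-Direct kit and hybridized to Affymetrix arrays (Mouse Gene 1.0 ST). The authors deposited log2 RMA values (background correction, quantile normalization, summarization) made in Partek; no software version or genome build was found in the labels or methods. Quantile normalization removes differences in overall level, and log2 differences of dim rows understate changes. Rows were named through the platform annotation, updated by gene ID (21689 of 21780 rows matched). Differences were tested with limma 3.58.1 in R 4.3.3 (lmFit, eBayes, Benjamini-Hochberg over 21780 rows, adjusted p below 0.1), with single embryos, families and a moderated F. Tests were checked on simulated data with independent embryos and rows and with planted shifts larger than any Hox difference here. That check does not cover shared fathers or differences of the size seen in Hox rows. Dixon's ratio marked embryos apart. Members and lists were chosen with earlier results of these data known. The named genes were every row above the floor, the 6 smallest p in each direction, every row with an embryo apart, every row called in a family or single embryo (none was), and the lowest and highest row of each cluster. The sequences were credited to RefSeq, GRCm38.p6, and the number of arrays limits precision.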

Additional observations from a re-analysis of the deposited data

Results flagged for a closer look

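In 6 Hox rows and 1 companion row, 1 embryo lay apart from its group by Dixon's ratio (its gap to the nearest embryo over the group's range), above the 95% critical value for its group's size; chance marks about 1 in 20 groups. In control embryos 2 Hox rows were marked, 5.41% of 37 against 10.5% of all rows: Hoxa5 in B-1 (ratio 0.581; 5.16 against 4.65 to 4.87 in the others) and Hoxa10 in B-2 (0.649; 5.50). In PJ34 embryos 4 Hox rows were, 10.8% against 13.2%: Hoxa13 lowest in MTM13-1 (0.488; 5.53), Hoxb3 highest in MTM13-4 (0.504; 8.02), Hoxd1, an anterior gene, highest in MTM13-4 (0.484; 5.88) and Hoxd12 lowest in MTM14-1 (0.469; 5.18). The antisense row Hoxaas2 was highest in control D-3 (0.664; 6.12). Both shares of Hox rows were below the background.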

How the results depend on the processing

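No alternative called a Hox row at an adjusted p below 0.1, in the groups (the methods' analysis of variance included), families or single embryos. The count of rows at unadjusted p below 0.05 between groups, 1 as reported, was 0 with means of 3 sires against 3, with rows above the median level only (8 Hox rows left), with a variance prior with trend and without sire MTM13; leaving out each embryo in turn it ran from 0 to 2, and was 0 in 10 of the 17 cases (without B-2, B-3, D-2, MTM11-2, MTM11-3, MTM14-1 or any MTM13 embryo). In MTM13 that count was 2 with centred arrays and 0 with the filter, and from 0 to 2 without single embryos; in MTM11 it ran from 0 to 2 without single embryos; in MTM14 it was 0 with the filter and from 0 to 1 without single embryos. The median difference ran from -0.03 to 0.00 without single embryos. Hoxc5 turned from a higher to a lower mean without sire D (-0.006). The count above the floor, 8, was 3 with the 99th percentile of olfactory rows and 1 with the 95th percentile of homeobox rows outside the clusters (chosen after seeing the data), and 8 without each embryo. The filter on level took out Hoxa9, Hoxb13 and Hoxd8, the rows behind the counts between groups, in MTM13 and in MTM14. The fall of these counts to 0 with the filter therefore follows from the rows removed. The cause of the other changes was not tested. The means of single-sire families and of 1 embryo rest on few arrays. No paired analysis was possible because each sire belongs to 1 group and no embryo number pairs the groups. Leaving out sire A is the same as leaving out embryo A-2.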

Other observations

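The row that carries both Hoxb8 and Hoxb7 as symbols was counted in no comparison. It had 4.96 ± 0.10 (SD, n = 7) in control and 4.93 ± 0.08 (SD, n = 10) in PJ34 embryos, and it exceeded the floor in 0 of 17 embryos.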
